A study of Mus musculus with 6 samples.

Results

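Transcripts of the proteasome were followed in long-term haematopoietic stem cells (LT-HSCs) of wild-type and Dcaf8 knockout mice. The members were all protein-coding genes whose mouse symbol starts with Psma, Psmb, Psmc, Psmd, Psme, Psmf or Psmg followed by a number, 50 of the 55357 gene identifiers in the table. Of these, 49 encode proteasome subunits, regulators or assembly factors, and Psmc3ip, a recombination cofactor, shares only the name. They were divided into 7 alpha and 7 constitutive beta subunits of the 20S core, 3 immunoproteasome subunits, 2 tissue-specific 20S subunits, 6 ATPase and 11 non-ATPase subunits of the 19S particle, 6 regulators and 7 assembly factors. A further 4 genes with such names that are annotated as pseudogenes were left out.

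Each group held LT-HSCs of 3 mice described as young. The control group is labelled wild-type and the other Dcaf8 KO, and the labels give no exact age, sex, knockout allele or Cre restriction. Cells were sorted from bone marrow as Lin-Sca-1+c-Kit+CD150+CD48-, and 50 cells gave 1 amplified library per mouse. The comparison addresses which transcripts differ in stem cells that lack DCAF8, a protein that brings substrates to a cullin-based ubiquitin ligase.

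The proteasome degrades proteins that such ligases have marked with ubiquitin. Its 20S core is a stack of alpha and beta rings with the proteolytic beta subunits inside, and its 19S cap binds ubiquitin chains, removes them, unfolds the substrate with a ring of ATPases and feeds it into the core. In blood cells, and after interferon, immunoproteasome subunits can replace the constitutive catalytic ones, which changes the peptides made for MHC class I. Other caps, among them PA28 and PA200, open the core without binding ubiquitin.

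Total counts ranged from 14461864 to 22386387 per library, and 15244 to 17015 genes had at least 1 count, with more in every knockout than in every wild-type library. Levels below are TMM-normalised CPM, each count relative to the scaled total of its library, where TMM is a scaling that aligns the bulk of genes between libraries. Dcaf8 stood at 204 to 293 CPM in the wild-type libraries and 38.1 to 74.3 CPM in the knockout libraries, a log2 fold change of -2.28 ± 0.28. The edgeR test used below did not call Dcaf8 itself over all genes (adjusted p = 0.739), while DESeq2 did (adjusted p = 1.83e-09), so 0 calls by edgeR do not show that genes did not differ. All 12 LT-HSC markers looked for were counted, with sums of 2791 to 3378 CPM of the total count. Wild-type replicate 2 stood apart with 7584 CPM of 14 neutrophil markers against 124 to 289 CPM elsewhere. Ctsg and Mmp8 of that list had 0 counts in all libraries, and Prtn3 made up most of the sum outside wild-type replicate 2. Its 10 macrophage and monocyte markers also summed highest, 1018 CPM against 448 to 630 CPM, with Adgre1 and Ccr2 at 0 in all libraries. Lyz2 alone made up 879 of the 1018 CPM. C1qa, C1qb, C1qc and Ly6c2 were also highest in wild-type replicate 2, while Cd68, Csf1r and Ms4a6c were not. The part of these markers in the results was not tested. Knockout replicate 3 had Xist at 50.7 CPM and no Ddx3y count, and the other 5 libraries had Ddx3y counts and Xist at no more than 1.24 CPM, so the sexes were not balanced between the genotypes. In bulk libraries fewer expressing cells and less RNA per cell cannot be told apart.

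Across the family the genotypes were close. The 50 members summed to 9164, 10896 and 10904 CPM in wild-type replicates 1 to 3, against 9051, 10475 and 10836 CPM in the knockout replicates. Replicate 1 was the lowest library of each genotype. By edgeR's quasi-likelihood test, fitted to all 14592 genes that passed the filter on low counts, 0 of 49 tested members passed at an adjusted p (Benjamini-Hochberg) under 0.05, where the share called among all genes was 0%. At an unadjusted p under 0.05 there were 2 members (5.82% of all genes in either direction), namely Psme4 on the higher side (3.47% of all genes) and Psmd5 on the lower (2.35%). DESeq2 called 0 members, beside 0.934% of all genes. It gave 3 members an unadjusted p under 0.05 (5.68% of all genes), and so did limma-voom (5.63%), the third being Psmd11 in each. The groups did not overlap for 4 members (10.3% of all genes), 1 of them higher (5.91%) and 3 lower in knockout (4.43%). The member that was not tested, Psmb11, did not pass the filter.

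The differences were small for most of the family. They were under 0.5 on the log2 scale in 48 of 49 members, beside 66.2% of all genes tested and 95.3% of the genes with a mean of at least 100 CPM. The 95% interval of the difference lay inside a 2-fold change in either direction for 45 of 49, beside 29.7% of all genes and 88.4% of those with at least 100 CPM. The median spread between libraries of 1 genotype was an SD of 0.22 log2 units for the members, 0.51 for all genes and 0.25 for genes with at least 100 CPM. Both shares and the spread were therefore close to those of the genes with at least 100 CPM. Most but not all members were at that level, and Psme4 and Psmg3 had means of 8.21 and 21.6 CPM.

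**Figure D1:**
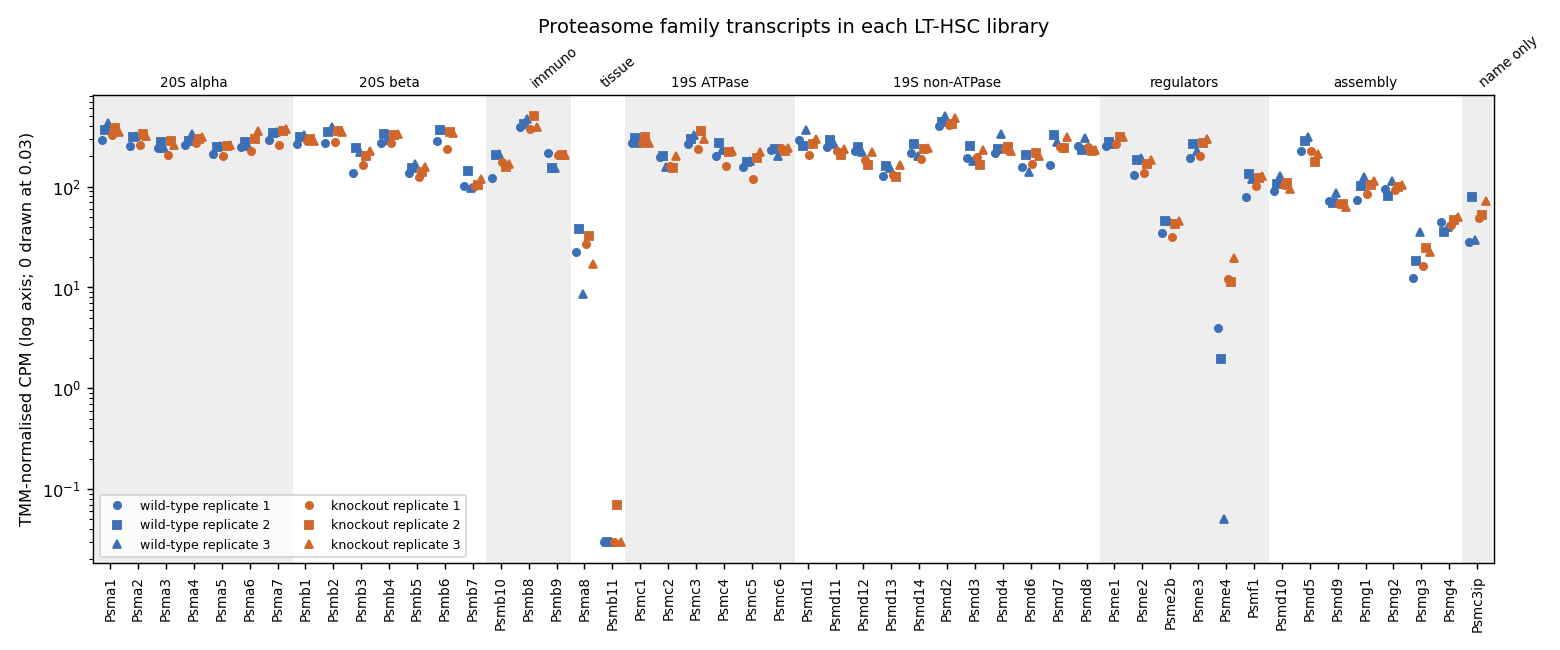
TMM-normalised CPM (log axis) of the 50 members in each of the 6 libraries, with wild-type in blue, knockout in orange, a marker shape per replicate and members grouped by class. Points of most genes lie close to each other, while Psme4 stands at 0.051 to 4.0 CPM in wild-type and 11.3 to 19.8 CPM in knockout, and Psmb11 had 1 count in all libraries.

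The alpha subunits form the outer rings of the core and its gate. Their 7 genes summed to 1792, 2100 and 2185 CPM in wild-type replicates 1 to 3, against 1748, 2205 and 2233 CPM in the knockout replicates, so the groups overlapped. Log2 fold changes of the 7 genes ran from -0.04 to 0.17 with a median of 0.00061, against 0.0088 over all genes tested, and 4 values were above 0. Psma6, with the smallest p on the higher side, stood at 245, 275 and 254 CPM in wild-type against 226, 295 and 354 CPM in knockout libraries. Only knockout replicates 2 and 3 lay above the wild-type range, and the log2 fold change was 0.17 ± 0.18 (SE) with a 95% interval from -0.25 to 0.60 (edgeR adjusted p = 0.969). Psma3, with the smallest p on the lower side, stood at 243, 279 and 245 CPM against 209, 281 and 260.2 CPM, a log2 fold change of -0.04 ± 0.16.

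The beta rings carry the proteolytic sites. Psmb5 encodes beta5 (chymotrypsin-like), Psmb6 beta1 (caspase-like) and Psmb7 beta2 (trypsin-like), while Psmb1 to Psmb4 encode structural beta subunits. The 7 constitutive beta genes summed to 1464, 1889 and 1868 CPM in wild-type, against 1457, 1783 and 1809 CPM in knockout. None passed the edgeR test, 6 of 7 values were below 0, and the log2 fold changes ran from -0.15 to 0.05 with a median of -0.06. Values below 0 were found for 7166 of 14592 genes tested and 1579 of the 2878 with a mean of at least 100 CPM. Psmb6 stood at 283, 361 and 369 CPM in wild-type against 235, 347 and 339.7 CPM in knockout (log2 fold change -0.15 ± 0.19, adjusted p = 0.971). Psmb5 stood at 136, 152 and 167 CPM against 124, 139.6 and 157 CPM (-0.11 ± 0.17). Both genes had their lowest value in knockout replicate 1 and overlapped between groups. Psmb7 stood at 102, 142 and 97.0 CPM against 100.5, 104 and 121 CPM (-0.07 ± 0.22), with wild-type replicate 2 the highest and wild-type replicate 3 the lowest library. Psmb4 stood at 272, 332 and 294 CPM against 270.0, 329 and 333 CPM (0.05 ± 0.14), the one positive value of the class. Psmb7 shares 34.9% of its exon bases with Nek6 on the opposite strand, and the sources used here give no strand setting for the counting. Psmb5 shares 12.1% of its exon bases with Mir686 on the same strand.

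Most of the 14 core genes shared a pattern across libraries that crossed genotype and was not particular to the core. The lowest level was in knockout replicate 1 for 7 of them, in wild-type replicate 1 for 6, and in wild-type replicate 3 for Psmb7. The highest was in wild-type replicate 3 for 6, in knockout replicate 3 for 4 and in replicate 2 of either genotype for 2 each. The summed core level was 3256, 3989 and 4053 CPM in wild-type replicates 1 to 3, against 3205, 3987 and 4042 CPM in the knockout replicates. Replicate 1 of each genotype also had the lowest sum of the 19S, immunoproteasome and regulator genes, and of the proteasome partners described below. That was not so for the assembly factors in knockout, or for the MHC class I and interferon genes described below. The labels name no batch that same-numbered libraries would share.

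The immunoproteasome genes were counted in every library, at 123 to 505 CPM. Psmb8 encodes beta5i, Psmb9 beta1i and Psmb10 beta2i, the replacements of Psmb5, Psmb6 and Psmb7. Psmb8 (ENSMUSG00000024338) stood at 389.8, 421 and 469 CPM in wild-type against 375, 505 and 389 CPM in knockout libraries, a log2 fold change of -0.02 ± 0.15 with an interval from -0.37 to 0.33 (edgeR adjusted p = 0.998). Psmb10 (ENSMUSG00000031897) stood at 123, 205 and 212 CPM against 176, 156 and 169 CPM (-0.11 ± 0.22, interval -0.63 to 0.41, adjusted p = 0.986). Psmb8 shares 11.4% of its exon bases with Gm20496 on the opposite strand. The groups overlapped for each gene, and wild-type replicate 1 gave the lowest Psmb10 value.

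Psmb9 (ENSMUSG00000096727) stood at 217, 153 and 153 CPM in wild-type against 208, 207 and 205 CPM in knockout libraries. The knockout libraries were nearly equal, with wild-type replicate 1 above them and the other 2 wild-type libraries below. The log2 fold change was 0.25 ± 0.18 (interval -0.16 to 0.67, adjusted p = 0.939), and it was 0.43 without wild-type replicate 1 (edgeR adjusted p = 0.466). Psmb9 shares 15.7% of its exon bases with Tap1 on the opposite strand. Tap1, the adjacent peptide transporter gene, stood at 227, 214 and 104 CPM against 217, 180.1 and 173 CPM, with its low library in wild-type replicate 3.

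The ratio of each immunoproteasome gene to its constitutive counterpart within a library does not depend on scaling between libraries. For Psmb8 to Psmb5 the log2 count ratio was 1.52, 1.47 and 1.49 in wild-type replicates 1 to 3, against 1.60, 1.85 and 1.31 in the knockout replicates. The wild-type values were nearly equal, and the knockout values lay on both sides of them. For Psmb9 to Psmb6 it was -0.39, -1.24 and -1.27 in wild-type, against -0.17, -0.75 and -0.73 in knockout. Replicate 1 was highest in either genotype, and the groups overlapped through wild-type replicate 1. For Psmb10 to Psmb7 it was 0.27, 0.53 and 1.13 in wild-type, against 0.81, 0.58 and 0.49 in knockout, where the wild-type range enclosed the knockout values. Knockout minus wild-type differences of the means were 0.09, 0.42 and -0.02, with two-sided exact permutation p of 0.7, 0.3 and 0.9 (n = 3 per group, adjusted p = 0.9 for each of the 3 pairs). With 3 against 3 libraries the smallest possible p is 0.1. Counts corrected for exon length put the immunoproteasome gene at 60.9 ± 0.353% of the Psmb8 and Psmb5 pair in wild-type and 62.3 ± 4.47% in knockout (SD, n = 3). It was 23.6 ± 6.53% and 28.9 ± 4.77% for Psmb9 and Psmb6, and 57.9 ± 7.30% and 57.7 ± 2.77% for Psmb10 and Psmb7. On this per-length scale the transcripts of beta5i and beta2i had the higher values of their pairs in all 6 libraries, and those of beta1i the lower. The lengths were not corrected for bases shared with other genes. Psmb7 shares 34.9% of its exon bases with Nek6, so the order of Psmb10 and Psmb7 is uncertain.

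**Figure D2:**
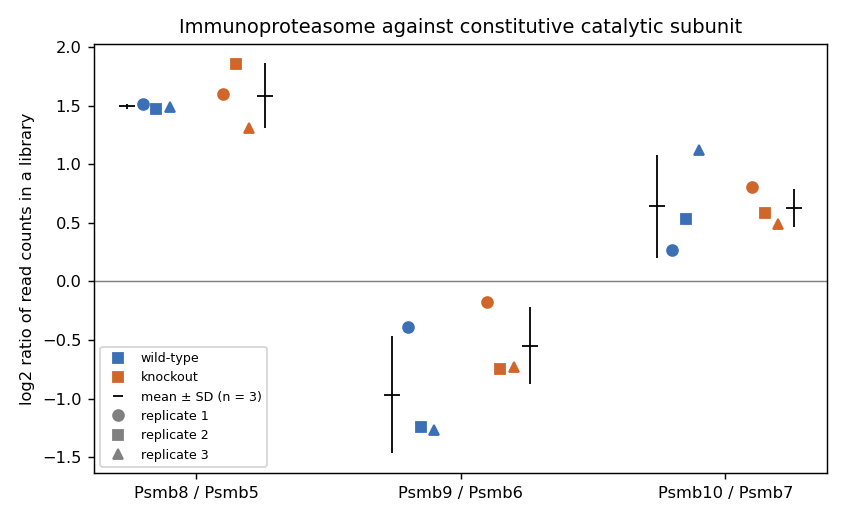
Log2 ratio of read counts of each immunoproteasome gene to its constitutive counterpart in each library, wild-type in blue and knockout in orange, a marker shape per replicate, with black bars for mean ± SD (n = 3 mice). The groups overlap in each pair, and wild-type replicate 1 at -0.39 is the one wild-type value inside the knockout range for Psmb9 to Psmb6.

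The start region of Psmb5 is shown as that of a constitutive catalytic subunit with a match to a site of the proteasome regulator NFE2L1. It is the 250 bases before the RefSeq start (GRCm38.p6), with the motif match in capitals. Psmb5 (chr14:54617996-54618245, minus strand) holds TGACNNNGC, a core of the antioxidant response element, the kind of site that this factor is known to bind.
Psmb5: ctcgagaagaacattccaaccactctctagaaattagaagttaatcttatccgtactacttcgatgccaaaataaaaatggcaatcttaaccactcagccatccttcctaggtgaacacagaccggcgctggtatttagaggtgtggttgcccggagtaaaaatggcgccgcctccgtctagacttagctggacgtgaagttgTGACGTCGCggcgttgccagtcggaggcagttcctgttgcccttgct
The same stretch of Psmb6 held this motif too, and those of Psmb9 and Psmb10 held no match to it or to the other motifs described next.

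Of the 50 members 42 matched a promoter in the RefSeq table, and each motif was searched on both strands of the 250 bases. TGACNNNGC was present in 5 of 42 members (11.9%), beside 14.1% of the 9910 tested genes with a promoter. The core of the interferon-stimulated response element, a pair of GAAA with any 2 bases between them, was present in 3 (7.14% beside 3.29%). CGGAAG, the core of sites for ETS factors, was present in 20 members (47.6% beside 29.2%). These matches describe letters in a window and show no binding.

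The 19S ATPases form the unfolding ring. Their 6 genes summed to 1320, 1495 and 1359 CPM in wild-type, against 1190, 1463 and 1462 CPM in knockout, with log2 fold changes from -0.22 to 0.09 and a median of 0.0032. Psmc4 (Rpt3) stood at 203, 272 and 229.7 CPM against 159.6, 220.2 and 227 CPM, a log2 fold change of -0.22 ± 0.19 (adjusted p = 0.963), with knockout replicate 1 lowest. Psmc6 (Rpt4) stood at 229.6, 239 and 199 CPM against 242, 228 and 242 CPM (0.09 ± 0.14), and its groups overlapped.

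The 11 non-ATPase members encode most, but not all, of the lid subunits and of the ubiquitin receptors and scaffolds of the base. They summed to 2497, 2915 and 2935 CPM in wild-type, against 2440, 2515 and 2841 CPM in knockout. None passed the edgeR test, and 9 of 11 values lay below 0, with a median log2 fold change of -0.08 and a range from -0.29 to 0.20. Among all genes with a mean of at least 100 CPM, 1579 of 2878 values lay below 0. Psmd11, the lid subunit Rpn6, stood at 247, 288 and 264 CPM in wild-type against 224, 205 and 235 CPM in knockout libraries. Its groups were apart, with knockout below wild-type throughout, a log2 fold change of -0.26 ± 0.13, an interval from -0.57 to 0.05, and adjusted p of 0.876 (edgeR) and 0.503 (DESeq2). Psmd6 (Rpn7) stood at 158, 208 and 139 CPM against 169, 217 and 202 CPM, a log2 fold change of 0.20 ± 0.20 (adjusted p = 0.965). For all 31 constitutive 20S and 19S genes that match the name rule the 95% interval lay between -0.70 and 0.67 on the log2 scale. A 2-fold difference in either direction lay outside every one of these intervals. Adrm1 and Sem1, 19S subunits without the name prefix, were read with the partners below. Their intervals ran from -0.76 to 0.23 and from -0.31 to 0.43.

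**Figure D3:**
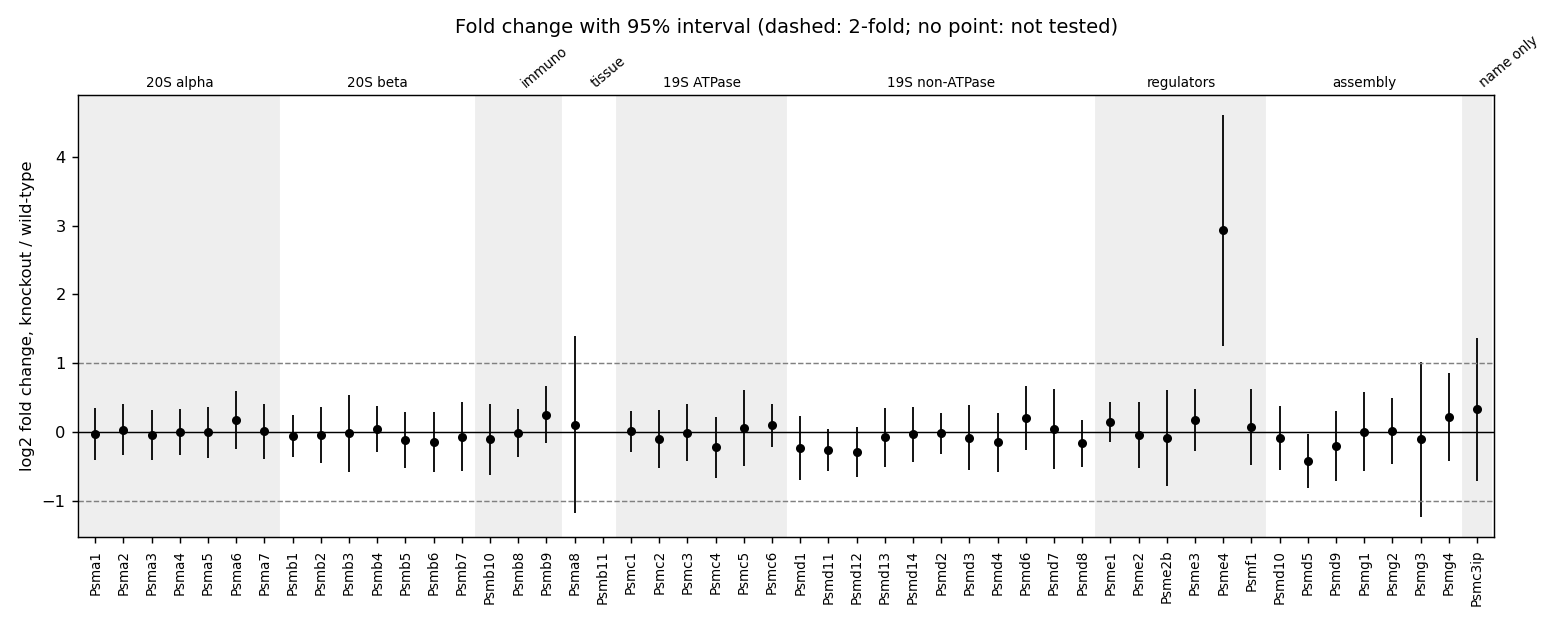
Log2 fold change of knockout over wild-type (edgeR, 3 mice per genotype) with its 95% interval for the 49 tested members, grouped by class, with dashed lines at a 2-fold change. All intervals of the 20S, immunoproteasome and 19S genes except Psma8 lie between the dashed lines, that of Psmd5 lies below 0 and that of Psme4 lies above the upper line.

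Among the 6 regulators 1 gene stood apart. Psme4 (ENSMUSG00000040850) encodes PA200, a nuclear cap that binds the end of the core and is known for the turnover of acetylated histones. It had 71, 40 and 1 counts in wild-type replicates 1 to 3 against 278, 163 and 437 counts in the knockout replicates. These are 4.0, 1.94 and 0.0507 CPM against 12.2, 11.3 and 19.8 CPM, so the knockout libraries all lay above the wild-type ones. The means were 2.0 ± 1.97 and 14.4 ± 4.64 CPM (SD, n = 3 per group), and the log2 fold change was 2.93 ± 0.76 (SE), a 7.63-fold higher level with an interval from 1.25 to 4.62 on the log2 scale. With an unadjusted edgeR p of 0.00303 the gene missed the threshold over all genes (adjusted p = 0.739 by edgeR, 0.448 by DESeq2). Without single libraries the log2 fold change ran from 2.35 (without wild-type replicate 3) to 3.85 (without wild-type replicate 1). Wild-type replicate 3, with 1 Psme4 count, also had the fewest detected genes, 15244, and detected genes were more numerous in the knockout libraries (16508 to 17015) than in the wild-type libraries (15244 to 16393). The part of gene detection in the Psme4 difference was not tested. Psme4 was a low transcript in both genotypes, with 1.27 CPM per kb of exon over all 6 libraries.

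The 250 bases before the start of Psme4 (RefSeq, GRCm38.p6, chr11:30771525-30771774, plus strand) are shown because it is the member with the largest difference. Capitals mark the ETS core CGGAAG.
Psme4: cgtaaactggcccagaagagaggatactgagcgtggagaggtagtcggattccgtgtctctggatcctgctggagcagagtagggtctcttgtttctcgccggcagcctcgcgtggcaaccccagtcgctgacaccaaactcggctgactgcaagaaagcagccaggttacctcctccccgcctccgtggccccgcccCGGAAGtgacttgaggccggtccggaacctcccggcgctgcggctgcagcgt

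The other regulators differed little. Psme1 and Psme2 encode the alpha and beta chains of the interferon-inducible PA28 cap. Psme1 stood at 254, 276 and 266 CPM in wild-type against 264, 311 and 308 CPM in knockout (log2 fold change 0.14 ± 0.13), and Psme2 at 131, 183 and 192 CPM against 138, 169.7 and 185 CPM (-0.04 ± 0.21). Psme2b, a near copy of Psme2, stood at 34.5, 45.9 and 45.7 CPM against 31.8, 42.7 and 45.5 CPM (-0.09 ± 0.30). It shares 68.7% of its 50-base words with Psme2, so the split of reads between them is uncertain. Psme3, the nuclear PA28 gamma, had a log2 fold change of 0.17 ± 0.19, and Psmf1, which encodes the inhibitor PI31, of 0.07 ± 0.23.

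The 7 assembly factors help to build the particle and then leave it. Psmg1 to Psmg4 encode chaperones of the 20S core, and Psmd5, Psmd9 and Psmd10 encode chaperones of the ATPase ring. Their sum was 615, 699 and 839 CPM in wild-type replicates 1 to 3, against 632, 629 and 658 CPM in the knockout replicates, with wild-type replicate 3 highest for 6 of the 7 genes. Psmd5 (ENSMUSG00000026869, S5b) stood at 228, 284 and 311 CPM in wild-type against 224, 177 and 212 CPM in knockout libraries. The groups were apart, narrowly between replicate 1 of each genotype. The log2 fold change was -0.42 ± 0.17 with an interval from -0.81 to -0.03. With an unadjusted edgeR p of 0.0397 the gene also missed the threshold over all genes (adjusted p = 0.841 by edgeR, 0.455 by DESeq2). Leaving out wild-type replicate 1 gave -0.54, and leaving out wild-type replicate 3 gave -0.32. Without single libraries the unadjusted edgeR p of Psmd5 ran up to 0.128. It stayed under 0.05 only without wild-type replicate 1 or without knockout replicate 1. Psmd9 (p27), added after its values were seen because its groups did not overlap, stood at 71.4, 68.8 and 87.1 CPM against 67.9, 67.4 and 62.3 CPM (-0.20 ± 0.22). Psmd10 (gankyrin), the X-linked chaperone of this set, had a log2 fold change of -0.09 ± 0.20. Among the core chaperones Psmg4 stood at 44.3, 35.7 and 39.7 CPM against 41.3, 47.1 and 50.6 CPM (0.22 ± 0.27, adjusted p = 0.971). Psmg1, Psmg2 and Psmg3 had log2 fold changes of 0.0021, 0.02 and -0.11. Psmg3 shares 26.8% of its exon bases with Gm26938 on the same strand.

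The start region of Psmd5 (RefSeq, GRCm38.p6, chr2:34870963-34871212, minus strand), the member with the smallest p on the lower side, is shown beside that of Psme4. It held none of the 3 motifs.
Psmd5: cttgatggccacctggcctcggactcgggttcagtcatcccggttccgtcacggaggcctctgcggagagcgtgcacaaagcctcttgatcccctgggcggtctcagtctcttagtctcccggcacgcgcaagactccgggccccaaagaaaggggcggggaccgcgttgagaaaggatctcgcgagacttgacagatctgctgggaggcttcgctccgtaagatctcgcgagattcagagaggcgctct

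**Figure D4:**
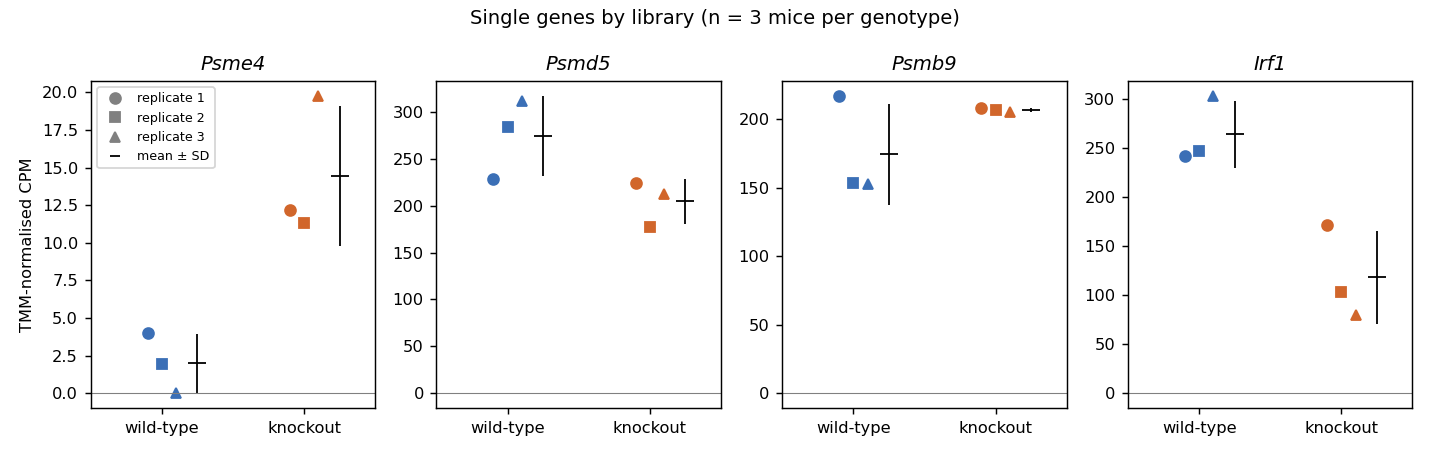
TMM-normalised CPM of Psme4, Psmd5, Psmb9 and the interferon regulatory factor gene Irf1 in each library, wild-type in blue and knockout in orange, with black bars for mean ± SD (n = 3 mice per genotype) and axes that include 0. The groups do not overlap for Psme4, Psmd5 and Irf1, and wild-type replicate 1 lies above the knockout libraries for Psmb9.

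The tissue-specific subunits differed from each other. Psmb11, the beta5t of cortical thymic epithelium, had 1 count in knockout replicate 2 and 0 in the other 5 libraries, where a count of 0 allows up to 3 counts, for counting error only. Psma8, known as the alpha4 form of male germ cells, was counted in every library, at 22.5, 37.8 and 8.58 CPM in wild-type against 27.1, 32.7 and 17.0 CPM in knockout (log2 fold change 0.10 ± 0.55). Its coding transcripts share 0 of 1689 words of 50 bases with Psma7, the usual alpha4 gene, which stood at 294, 337 and 349.8 CPM against 258, 358 and 378 CPM. Psmc3ip, the match by name alone, stood at 28.3, 79.2 and 29.6 CPM against 49.4, 52.3 and 72.0 CPM (0.33 ± 0.44, adjusted p = 0.973), and it shares 29.8% of its exon bases with Mlx on the opposite strand.

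Levels between genes were compared per kb of exon, with lengths from the GENCODE M21 annotation. Over the 6 libraries the class medians were 240 CPM per kb for the alpha and 258 for the constitutive beta subunits, 141 for the immunoproteasome, 139 for the 19S ATPases, 113 for the non-ATPases, 69.8 for the regulators and 71.8 for the assembly factors. The catalytic subunits were in the order Psmb6 (404 ± 65.8), Psmb8 (261 ± 31.8), Psmb5 (162 ± 17.3), Psmb9 (141 ± 21.8), Psmb10 (132 ± 24.9) and Psmb7 (95.8 ± 14.8 CPM per kb, SD over 6 libraries). The ranges of mean ± SD overlapped between Psmb5 and Psmb9, between Psmb9 and Psmb10, and between Psmb10 and Psmb7. The 34.9% of Psmb7 exon bases shared with Nek6 were not taken out of its length. Low values of Psma3 and Psmb1 (88.8 and 86.2 CPM per kb) come with annotated exon lengths of 2846 and 3427 bases. With the median coding transcript length in place of all exons Psma3 stood at 136 and Psmb1 at 168 CPM per kb, so the order of genes depends on the annotated ends.

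**Figure D5:**
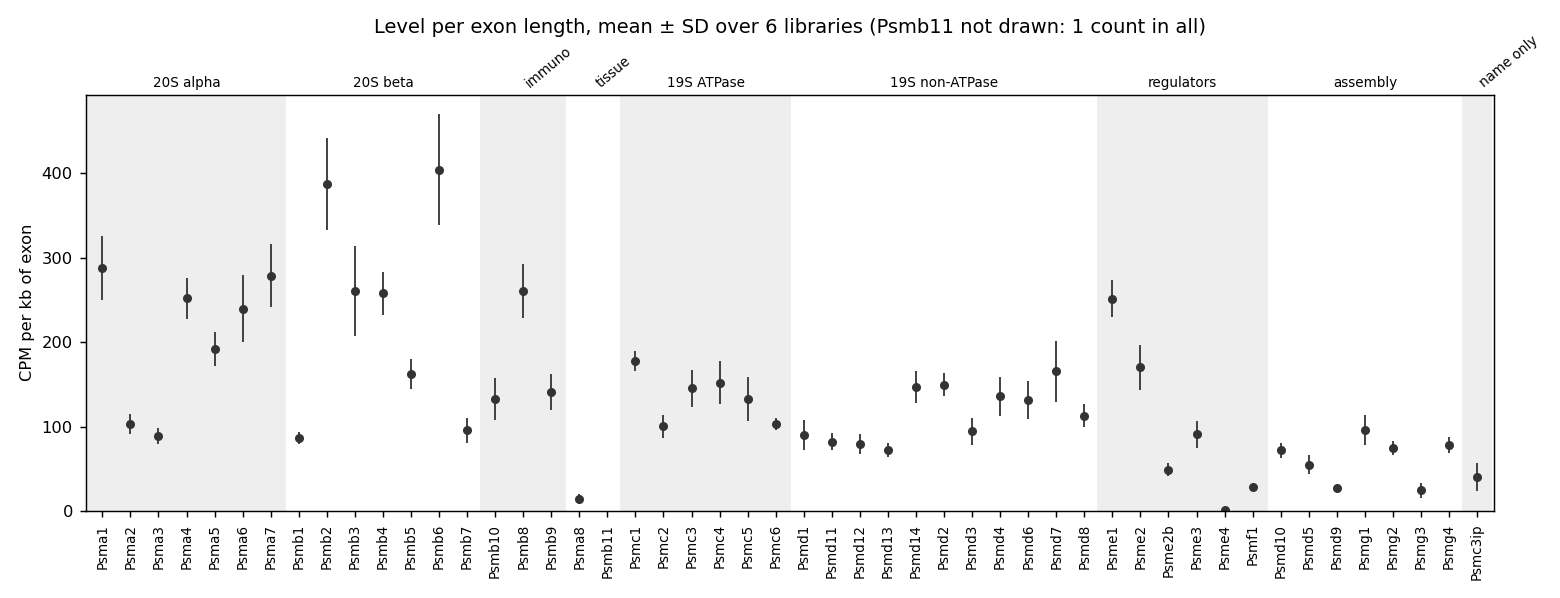
CPM per kb of exon for each member, mean ± SD over the 6 libraries of both genotypes, grouped by class. Psmb6 at 404 and Psmb2 at 387 are the highest, the 19S genes lie between 72.3 and 178, and Psme4 at 1.27 is the lowest shown.

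Proteasome partners were read from a list of 25 genes, of which 24 matched. They include the assembly factor Pomp, ubiquitin shuttles, proteasome-bound deubiquitinases, and the NFE2L1 pathway, which raises proteasome transcription when capacity falls. By edgeR 0 of 24 passed (0% of all genes), 0 had an unadjusted p under 0.05 (5.82% of all genes) and 0 had groups apart (10.3%), with 12 values above and 12 below 0 and a median log2 fold change of 0.00021. DESeq2 called 0 of them, beside 0.934% of all genes. Nfe2l1, the transcription factor of that pathway, stood at 54.8, 26.3 and 12.3 CPM in wild-type against 51.8, 39.7 and 75.1 CPM in knockout (0.90 ± 0.50, adjusted p = 0.899). Leaving out wild-type replicate 3 gave a log2 fold change of 0.51, and leaving out wild-type replicate 1 gave 1.54. Ddi2, the protease that activates NFE2L1, stood at 17.1, 30.9 and 22.7 CPM against 15.6, 18.4 and 11.1 CPM (-0.70 ± 0.43). Ufd1, an adaptor of the unfoldase VCP, stood at 156, 186 and 129 CPM against 97.9, 101 and 133 CPM (-0.50 ± 0.21, unadjusted p = 0.0507, adjusted p = 0.857 by edgeR). DESeq2 gave Ufd1 an unadjusted p of 0.0228, where 5.68% of all genes were under 0.05, and an adjusted p of 0.495. The shuttle gene Ubqln1 stood at 149.6, 152 and 184 CPM against 166, 205 and 237 CPM (0.32 ± 0.19). The groups overlapped for each of these 4 genes.

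Genes of MHC class I presentation and interferon control, which use or induce the immunoproteasome, went both ways. Of 13 tested genes 0 passed by edgeR, and 3 had an unadjusted p under 0.05 (5.82% of all genes), 2 on the higher side in knockout (3.47%) and 1 on the lower (2.35%). DESeq2 called 2, Irf1 and Tap2, beside 0.934% of all genes. The groups were apart for 3 genes on the higher side (5.91% of all genes), Tap2, Ifngr2 and Ifnar1, and for 1 on the lower (4.43%), Irf1. Irf1, the transcription factor known to drive Psmb9 and Tap1, stood at 242, 247 and 303 CPM in wild-type against 171, 103 and 79.6 CPM in knockout. The groups were apart, with a log2 fold change of -1.15 ± 0.28 (adjusted p = 0.739 by edgeR, 0.0288 by DESeq2). Tap2, a subunit of the peptide transporter, lay the other way at 145, 147 and 132 CPM against 181, 199.7 and 195 CPM (0.44 ± 0.15, adjusted p = 0.769 by edgeR, 0.019 by DESeq2). Ifngr2, a chain of the interferon gamma receptor, stood at 26.0, 24.3 and 22.8 CPM against 51.0, 46.1 and 31.3 CPM (0.81 ± 0.34, adjusted p = 0.851 by edgeR), and its groups were apart. Erap1, the peptide-trimming protease, stood at 208, 170.5 and 202 CPM against 144, 177 and 185 CPM (-0.20 ± 0.17), with overlap. Ifnar1, a chain of the type I interferon receptor named after its values were seen, stood at 80.0, 98.3 and 18.4 CPM against 131, 110.0 and 99.2 CPM (0.80 ± 0.47, adjusted p = 0.911 by edgeR), with wild-type replicate 3 far below the other libraries. Beside these values the immunoproteasome genes Psmb8, Psmb9 and Psmb10 had log2 fold changes of -0.02, 0.25 and -0.11.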

How the data were processed

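The authors deposited raw read counts per Ensembl gene with a column for each library. The labels' protocols describe amplification of full-length mRNA from 50 sorted cells, tagmentation and 12 PCR cycles. The submitters' processing notes name Trimmomatic 0.39, HISAT2 2.2.1, Picard 2.26.1, HTSeq 1.99.2, DESeq2 1.38.3 and mm39 without roles. The sources used here give neither annotation release nor strand setting. Without molecular identifiers, limits on low counts cover counting error only. The libraries came from separate mice.

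Symbols were found for 52081 of 55357 identifiers (99.87% of counts). Counts were fitted with edgeR 4.0.16 in R 4.3.3 (filterByExpr with minimum count 10 and total 15, TMM, robust quasi-likelihood, legacy off, genotype only), after the code was tested on simulated counts. Standard errors and 95% intervals were computed from the F statistic. Alternatives were other scaling factors (upper-quartile, RLE), omission of the filter, a filter of 5 CPM in 3 libraries, DESeq2 1.42.0, limma-voom 3.58.1 with sample weights, the legacy fit, a replicate block, removal of mitochondrial and the 20 most abundant genes, and each library left out.

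Members, lists and motifs were chosen with earlier results of these data known. Named genes were Dcaf8, the catalytic pairs, the smallest p per class and direction, members with unadjusted p under 0.05 or no counts in a library, Psmc3ip, and the 2 smallest p per direction of each list. Other names complete a class or were added after their values were seen. Exon lengths and overlaps are from GENCODE M21 (GRCm38), not the build of the counts. Marker sums are CPM of the total count. The matches of 1 further motif are not reported here.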

Additional observations from a re-analysis of the deposited data

How the results depend on the processing

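Over 15 alternatives 0 members passed over all genes. The count of members with an unadjusted p under 0.05, which was 2, became 1 with the legacy fit (Psmd5), 1 with the replicate block (Psme4), and 1 to 3 without single libraries. Of all genes DESeq2 called 154, against 0 by edgeR, and the number at an unadjusted p under 0.05 was 559 with the legacy fit and ran from 714 to 1445 without single libraries, highest without wild-type replicate 1. The cause was not tested. Without single libraries the median log2 fold change ran from -0.083 to 0.057 for the immunoproteasome genes and from -0.20 to 0.16 for the assembly factors, highest without wild-type replicate 3. The ratio difference ran from -0.043 to 0.23 for Psmb8 to Psmb5, from -0.20 to 0.23 for Psmb10 to Psmb7, and from 0.23 (without knockout replicate 1) to 0.71 (without wild-type replicate 1) for Psmb9 to Psmb6. Of 405 single-gene values 12, in 7 genes, changed sign. Psmb8 stood at 0.0081 with limma-voom. Without single libraries the log2 fold change ran from -0.16 to 0.057 for Psmb8, -0.12 to 0.077 for Psma3, -0.32 to 0.026 for Psmb10, -0.018 to 0.14 for Psmb4, -0.26 to 0.019 for Psmb6, -0.17 to 0.13 for Psmb7 and -0.21 to 0.066 for Psme2b. The labels do not say that replicate numbers pair mice, and same-numbered libraries correlated at 0.0593, -0.0381 and 0.0058 in their deviations from the group means, so the block is an alternative only. Among the members the 95% intervals of Psmg3, Psma8 and Psmc3ip reached from below 0 to beyond a 2-fold higher level in knockout, which was therefore not excluded. Those of Psmg3 and Psma8 also reached beyond a 2-fold lower level.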

Other observations

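Of the 4 pseudogenes that share the name pattern, Psmb6-ps2 had 2 to 11 counts per library and the other 3 had 0 counts in all 6 libraries.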
